A study of Homo sapiens with 6 samples.

Results

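The genes described here are 40 integrins and other cell adhesion genes, and they were followed through knockdown of EZH2 in human lymphoma cells. They were chosen by name: integrin alpha and beta chains, adhesion molecules of the immunoglobulin fold, galectins, cadherins and EPCAM, other surface glycoproteins, and the proteins that tie integrins to actin. A probe set counted if its annotation gave a single gene symbol and that symbol was a member, and each gene was read by its brightest such probe set over the arrays. Of the 40 genes, 39 had a single-gene probe set (112 probe sets in all), among 19775 genes on the array. F11R was the exception, since its probe sets carried several symbols. Of these genes, 34 passed a filter on dim signals and were tested among 12961 genes. ITGA1, ITGAX, VCAM1, CDH1 and CDH2 did not pass and are given as levels only.

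Cells of KARPAS-422 and Pfeiffer, both established human lines of diffuse large B-cell lymphoma, were infected with lentivirus and selected with puromycin, and were labelled with 10 days of treatment. The groups were KARPAS-422 with a short hairpin RNA against EZH2 (shEZH2, 2 arrays), KARPAS-422 with a hairpin that matches no mammalian sequence (shNTC, 2 arrays), Pfeiffer with shEZH2 (1 array) and Pfeiffer with shNTC (1 array). All groups therefore share infection and drug selection, each arm rests on a single hairpin sequence, and each line is a single cultured lineage. The KARPAS-422 arrays are called biological replicates, but whether each had its own infection is not stated, and p-values then measure the spread between these samples alone, which may be technical. RNA was measured on Affymetrix 3' expression arrays. Values are log2 MAS5 signals, and a knockdown difference is shEZH2 minus shNTC in log2 units.

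EZH2 is the methyltransferase of Polycomb repressive complex 2. It methylates histone H3 on lysine 27 and keeps its target genes silent. Integrins are surface receptors made of an alpha and a beta chain. On lymphocytes they are switched on from inside the cell when talin and kindlin bind the beta chain's tail, and once they hold a ligand they signal inward through focal adhesion kinases. In lymphoid tissue, LFA-1 (ITGAL with ITGB2) binds the ICAM proteins and VLA-4 (ITGA4 with ITGB1) binds VCAM1 and fibronectin, which holds B cells to the stromal and follicular dendritic cells of the germinal centre. Galectins are soluble lectins that crosslink glycoproteins on the same or on neighbouring cells.

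LGALS9, galectin-9, was among the members called higher with knockdown in KARPAS-422, and its promoter is shown here because the reading of that gene returns below. The window runs from 250 bases before to 50 bases after the RefSeq transcript start (GRCh38.p14, chr17:27630938-27631237, plus strand). Capitals mark a match, on the strand opposite to the gene, to the core of the interferon-stimulated response element (GAAANNGAAA), which begins 9 bases before the start.
LGALS9: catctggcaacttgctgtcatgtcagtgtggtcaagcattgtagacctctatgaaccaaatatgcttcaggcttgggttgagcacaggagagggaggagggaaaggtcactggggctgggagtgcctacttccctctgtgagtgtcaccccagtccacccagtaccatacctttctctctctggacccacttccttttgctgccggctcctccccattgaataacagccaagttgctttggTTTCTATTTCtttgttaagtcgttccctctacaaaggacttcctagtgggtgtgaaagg

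EZH2, the targeted gene, was lower in every shEZH2 sample. EZH2 read 10.52 and 10.55 on the KARPAS-422 shEZH2 arrays, against 11.71 and 11.57 on the shNTC arrays (difference -1.11, SE 0.10, limma adjusted p = 7.44e-04), and 46.3% of the control signal was left. In Pfeiffer it read 10.24 with shEZH2 and 11.65 with shNTC, which left 37.6%. All arrays were scaled to the same trimmed mean, and replicate arrays correlated at r = 0.983 (shEZH2) and 0.978 (shNTC) across the tested genes, as the Pfeiffer arms also did at 0.978. As a check of RNA quality, the 3' end of ACTB exceeded its 5' end by 0.138 and 0.175 log2 units in the KARPAS-422 shEZH2 samples and by 0.0593 and 0.0830 in the shNTC samples. The same measure for GAPDH was -0.169 and -0.241 with shEZH2 and -0.182 and -0.158 with shNTC, where the arms overlapped. The part of either in the results was not tested. The B cell markers MS4A1 and PAX5 were bright on all 6 arrays, at 13.62 to 14.13 and 12.60 to 13.33. CD79A read 12.67 to 12.83 in KARPAS-422 and a dimmer 9.13 and 8.17 in Pfeiffer. Some markers of other lineages were bright too: CD3D and CD3G read 10.53 to 12.08 in KARPAS-422, and CD8A read 13.60 and 13.49 in Pfeiffer. DCN, a matrix proteoglycan gene of fibroblasts, read 13.43 to 13.71 in KARPAS-422 and 7.17 and 6.88 in Pfeiffer. Other fibroblast genes did not follow it: COL1A1 read 8.28 to 8.44 in KARPAS-422 and 8.87 and 8.81 in Pfeiffer. COL1A2 differed by -0.13 between the lines, and COL3A1 and LUM were too dim to be tested. In such bulk samples, fewer cells of a type and less RNA per cell cannot be told apart.

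**Figure D1:**
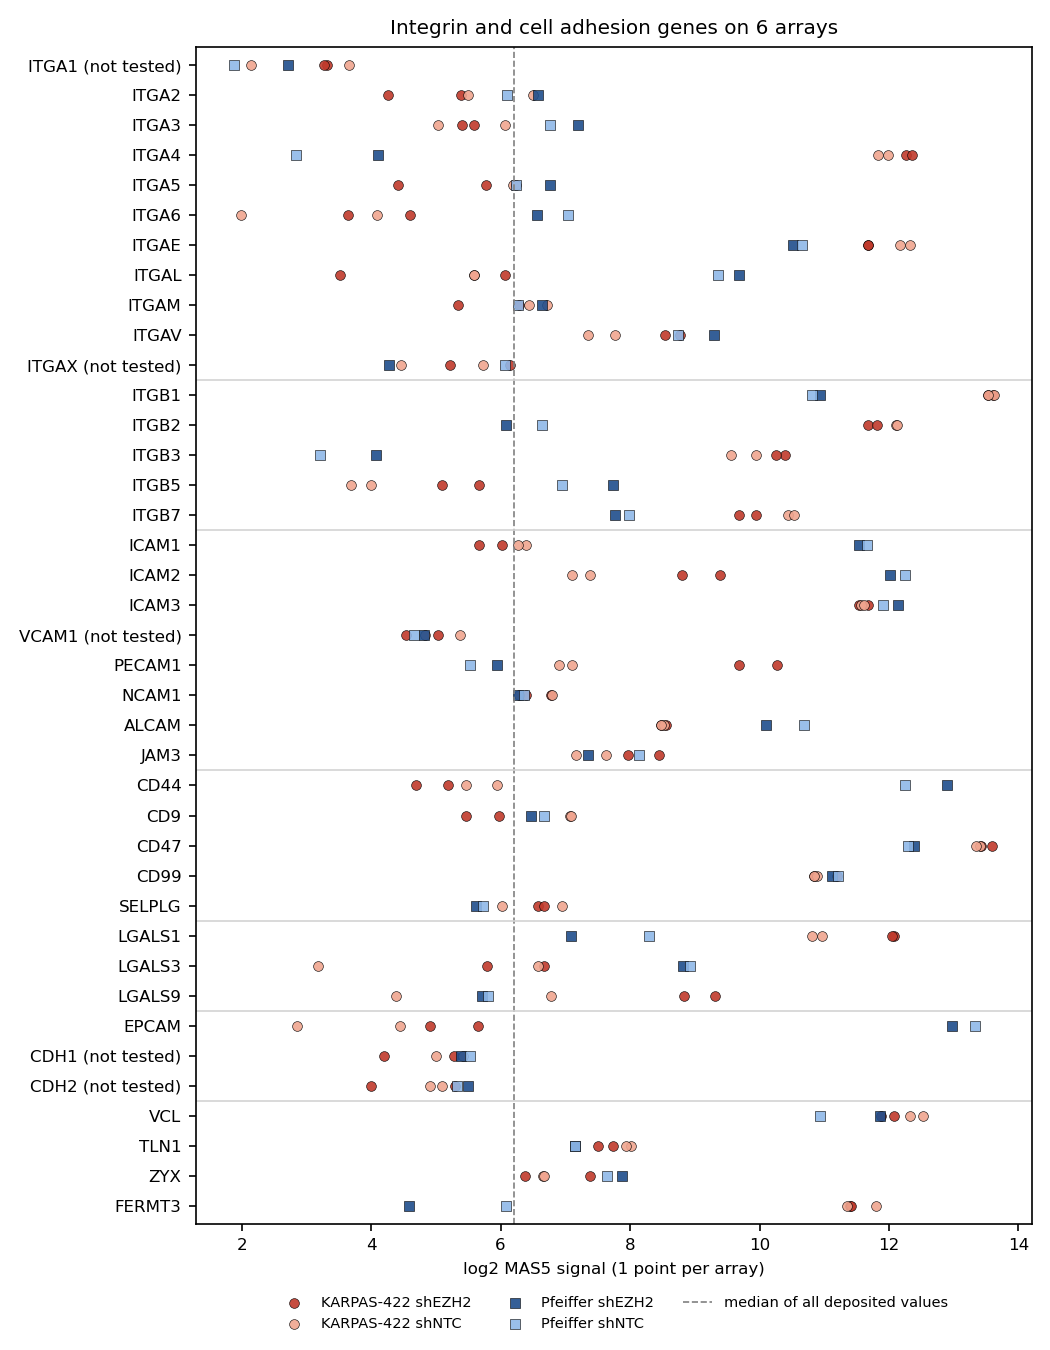
log2 MAS5 signal (x axis) of the 39 members with a single-gene probe set (y axis, grouped by role, separated by grey lines), with 1 point per array. Red and pink circles are KARPAS-422 with shEZH2 and shNTC, and dark and light blue squares are Pfeiffer with shEZH2 and shNTC. The dashed line is the median of all deposited values, 6.21. The lines lie far apart for genes such as ITGA4 and EPCAM, while the arms of KARPAS-422 part for ICAM2, PECAM1, LGALS1 and LGALS9. Points of different genes come from different probes, so levels compare along a row and not between rows.

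In KARPAS-422, a few adhesion receptors and galectins rose with EZH2 knockdown and a few lymphocyte integrin chains fell. PECAM1, ICAM2, LGALS1, LGALS9 and ITGAV were higher, and ITGAE, ITGB7, VCL and CD9 were lower on their brightest probe sets. Members were called about as often as other genes: 5 of 34 were higher (14.7%, against 13.1% of all tested genes) and 4 were lower (11.8%, against 12.4%), 9 in either direction (26.5%, against 25.6%). The median member difference was 0.03, against -0.02 over all genes. The median size of the difference was 0.63 for members and 0.33 over all genes. Both shEZH2 arrays lay above both shNTC arrays for 11 members (31.8% of all genes did so) and below them for another 11 (34% of all genes).

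Among the immunoglobulin-fold molecules, 2 of 7 tested members rose and 0 fell, beside 13.1% and 12.4% of all tested genes. PECAM1 (CD31), which binds itself on leukocytes and endothelial cells and recruits inhibitory phosphatases, read 10.26 and 9.68 on the shEZH2 arrays, against 7.10 and 6.91 on the shNTC arrays. The arms were far apart, and the difference of 2.97 (SE 0.26, adjusted p = 6.36e-04) is 7.84-fold. A further pair of PECAM1 probe sets gave 2.99 and 2.67, and another gave 0.48. ICAM2, a ligand of LFA-1, read 9.38 and 8.80 with shEZH2, against 7.10 and 7.37 with shNTC. It was 1.85 higher (SE 0.21, adjusted p = 0.0017), or 3.61-fold, and its other probe set gave 1.67. Both genes are also markers of endothelium. The 6 endothelial markers CDH5, VWF, KDR, TEK, CLDN5 and EMCN were all too dim to be tested, and their summed linear signal was 201 to 213 on the shEZH2 arrays and 196 to 239 on the shNTC arrays. ICAM3, the LFA-1 ligand of resting lymphocytes, read 11.68 and 11.53 with shEZH2, against 11.57 and 11.61 with shNTC, a difference of 0.02 (SE 0.09, adjusted p = 0.912). ICAM1, the ligand induced on activated cells, read 5.67 and 6.03 with shEZH2, against 6.40 and 6.27 with shNTC. It was dim in this line, its difference of -0.49 (SE 0.21) did not pass, and its probe sets ranged from -0.49 to 0.19. JAM3, a junctional adhesion molecule, read 8.45 and 7.97 with shEZH2, against 7.63 and 7.16 with shNTC, and did not pass either (0.81, SE 0.26, adjusted p = 0.0579). NCAM1 differed by 0.04 (SE 0.35). ALCAM, which binds CD6 on T cells, read 8.47 and 8.55 with shEZH2, against 8.52 and 8.48 with shNTC, a difference of 0.01 (SE 0.13). VCAM1 read 4.54 to 5.37 on the 6 arrays and was not tested.

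Of the 3 galectins, 2 rose and 0 fell, beside 13.1% and 12.4% of all tested genes. LGALS1, galectin-1, read 12.07 and 12.04 on the shEZH2 arrays, against 10.81 and 10.96 on the shNTC arrays. Its replicates lay close together, and it was 1.17 higher (SE 0.12, adjusted p = 9.92e-04), or 2.25-fold. LGALS9, a ligand of the checkpoint receptor TIM-3, read 9.32 and 8.83 with shEZH2, against 4.38 and 6.78 with shNTC. The groups did not overlap, but the control replicates differed by more than 2 log2 units, and the difference of 3.49 (SE 0.70, adjusted p = 0.0117) shrank to 2.31 with 64 added to each linear signal. It was 2.29 without shNTC replicate 1 and 4.69 without shNTC replicate 2. Its probe set may hybridise to more than a single transcript and the genome holds the near-identical copies LGALS9B and LGALS9C, so the reading is uncertain as to gene. Leaving out shEZH2 replicate 1 ended the LGALS9 call (3.25, adjusted p = 0.112), as did leaving out replicate 2 (3.74, adjusted p = 0.0845). LGALS3, galectin-3, read 5.78 and 6.68 with shEZH2, against 3.17 and 6.57 with shNTC, and its replicates spread too widely for a call (1.36, SE 0.96).

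Of 14 integrin chains tested, ITGAV rose and ITGAE and ITGB7 fell, beside 13.1% and 12.4% of all tested genes. ITGAV, the alpha chain of receptors for the RGD sequence in matrix proteins, read 8.77 and 8.54 with shEZH2, against 7.35 and 7.77 with shNTC (difference 1.10, SE 0.20, adjusted p = 0.00905). ITGAE and ITGB7 together form the E-cadherin receptor of intraepithelial lymphocytes, and ITGB7 also pairs with ITGA4 in the gut homing receptor. ITGAE read 11.67 and 11.68 with shEZH2, against 12.33 and 12.17 with shNTC (-0.57, SE 0.10, adjusted p = 0.00677). ITGB7 read 9.68 and 9.94 with shEZH2, against 10.44 and 10.53 with shNTC (-0.67, SE 0.15, adjusted p = 0.0156). Arms did not overlap for any of these 3 genes, and each was read by a single probe set. All 3 calls were lost without either shEZH2 array, with the direction kept: adjusted p without replicate 1 and without replicate 2 was 0.0815 and 0.0561 for ITGAV, 0.0541 and 0.0535 for ITGAE, and 0.106 and 0.0526 for ITGB7. The T cell markers CD3D (-0.77, adjusted p = 0.00918) and CD3G (-0.64, adjusted p = 0.0409) were also lower with shEZH2 in KARPAS-422. The other tested T and NK cell markers did not pass: CD3E differed by -0.28 (adjusted p = 0.602), and CD8A, at 5.80 and 6.30 with shEZH2 against 5.40 and 5.61 with shNTC, by 0.54 (adjusted p = 0.102). The summed linear signal of the 7 T and NK cell markers was 3984 to 4398 with shEZH2, against 6372 to 6980 with shNTC. Most of that sum came from CD3D and CD3G, so it largely restates those genes, and CD2, NKG7 and GNLY were dim. The part of these markers in the ITGAE and ITGB7 differences was not tested.

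The chains of the main lymphocyte integrins did not pass in KARPAS-422. ITGB1, the beta chain shared by the VLA receptors, read 13.60 and 13.53 with shEZH2, against 13.62 and 13.53 with shNTC, a difference of -0.01 (SE 0.08). ITGB2, the beta chain of the leukocyte integrins, read 11.67 and 11.81 with shEZH2, against 12.12 and 12.12 with shNTC, and just missed the threshold (-0.38, SE 0.12, adjusted p = 0.0519). ITGA4 read 12.26 and 12.36 with shEZH2, against 11.99 and 11.82 with shNTC (0.40, SE 0.14, adjusted p = 0.0722), although its 4 probe sets ranged from -0.18 to 0.43. ITGB3, which pairs with ITGAV, read 10.40 and 10.26 with shEZH2, against 9.56 and 9.94 with shNTC (0.58, SE 0.21, adjusted p = 0.0841), and its 6 probe sets ranged from -0.38 to 0.58. ITGB5, another beta partner of ITGAV among the members, read 5.66 and 5.10 with shEZH2, against 3.69 and 4.0 with shNTC. These dim signals differed by 1.53 (SE 0.51, adjusted p = 0.0649). ITGA2, ITGA3, ITGA5, ITGA6, ITGAL and ITGAM were all near or under the median of the array in KARPAS-422, and their differences, from -1.18 to 1.08, had standard errors of 0.43 to 0.97.

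Of 4 actin linkers tested VCL fell, and of 5 other surface glycoproteins CD9 fell. None of them rose, beside 12.4% lower and 13.1% higher among all tested genes. VCL, vinculin, which reinforces the link from talin to actin, read 11.87 and 12.07 with shEZH2, against 12.52 and 12.33 with shNTC (-0.45, SE 0.11, adjusted p = 0.0231). The VCL call depended on scaling: after quantile and cyclic loess normalization the difference was -0.33 (adjusted p = 0.0652) and -0.34 (adjusted p = 0.0671). It was also lost without shEZH2 replicate 1 (-0.35), shEZH2 replicate 2 (-0.55) or shNTC replicate 1 (-0.36). CD9, a tetraspanin that associates with integrins, read 5.97 and 5.47 with shEZH2, against 7.07 and 7.09 with shNTC on its brightest probe set (-1.36, SE 0.34, adjusted p = 0.0260). The other CD9 probe set gave 1.21, from dim signals of 5.15 and 3.08 with shEZH2, against 2.47 and 3.35 with shNTC. The array thus does not settle the direction of CD9. With the mean of both it differed by -0.08 (adjusted p = 0.930), and the call was lost without any of the 4 KARPAS-422 arrays, at differences of -1.61 to -1.11. FERMT3 (kindlin-3), the integrin activator of blood cells, read 11.39 and 11.42 with shEZH2, against 11.80 and 11.36 with shNTC (-0.17, SE 0.17). TLN1 (talin) read 7.73 and 7.50 with shEZH2, against 8.01 and 7.93 with shNTC (-0.35, SE 0.21). ZYX (zyxin), CD44, CD47, CD99, SELPLG and EPCAM were not called, at -0.77 to 1.62.

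**Figure D2:**
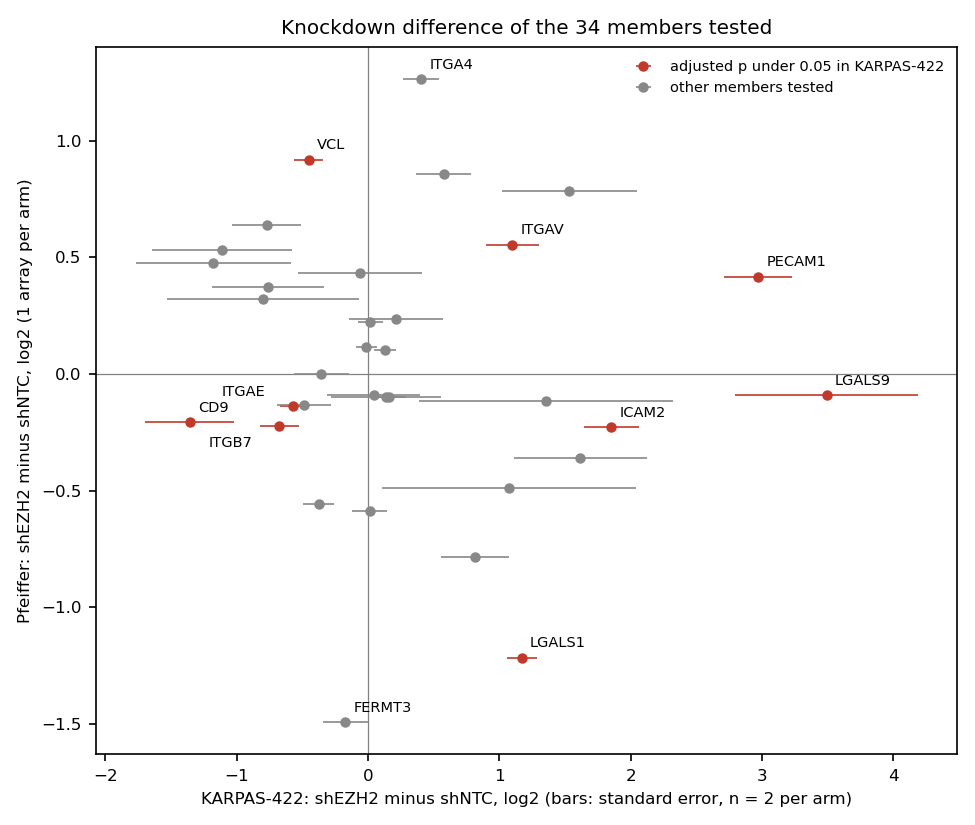
Knockdown difference of the 34 tested members, shEZH2 minus shNTC in log2 units, in KARPAS-422 (x axis, horizontal bars are standard errors, n = 2 arrays per arm) and in Pfeiffer (y axis, 1 array per arm, no error). Red points passed an adjusted p of 0.05 in KARPAS-422. Named points are these and the members that differed by at least 1 in Pfeiffer. PECAM1, LGALS9 and ICAM2 lie far to the right but near 0 in Pfeiffer, where PECAM1 and LGALS9 were under the median of all values. LGALS1 was 1.17 in KARPAS-422 and -1.22 in Pfeiffer.

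Pfeiffer had 1 array per arm, so its differences have no test. At 1 log2 unit or more, 1 of 34 members was higher (3.2% of all tested genes were) and 2 were lower (1.44% of all genes). Replicate arrays of KARPAS-422 differed by that much at 4.12% (shEZH2) and 5.77% (shNTC) of genes, as the Pfeiffer arms did at 4.64%. LGALS1 read 7.08 with shEZH2 and 8.30 with shNTC, a difference of -1.22. FERMT3 read 4.59 with shEZH2 and 6.08 with shNTC (-1.49), both under the median of all values. ITGA4 read 4.11 with shEZH2 and 2.84 with shNTC (1.26), also at the dim end, and its 4 probe sets ranged from -0.51 to 1.26. VCL, which is bright in this line, read 11.86 with shEZH2 and 10.94 with shNTC, a difference of 0.92. ITGAV, higher in KARPAS-422, read 9.29 with shEZH2 and 8.74 with shNTC (0.55). PECAM1 read 5.94 with shEZH2 and 5.52 with shNTC, both under the median of all values, and its 4 probe sets ranged from -0.88 to 0.42. ICAM2 read 12.02 with shEZH2 and 12.24 with shNTC. LGALS9 read 5.71 with shEZH2 and 5.80 with shNTC, also under that median. CD9 read 6.46 with shEZH2 and 6.67 with shNTC on its brightest probe set. On its other probe set it read 9.83 with shEZH2 and 10.71 with shNTC (-0.88). That probe set differed by -6.75 between KARPAS-422 and Pfeiffer, against -0.17 on the brightest.

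The knockdown differences of 4 members differed between the lines by the fit's interaction term, in which the single Pfeiffer arrays are assumed to vary like KARPAS-422 replicates. The term was positive for 3 of 34 members (1.31% of all tested genes) and negative for 1 (0.486% of all genes), or 11.8% of members in either direction against 1.8% of genes. LGALS1 moved in opposite directions, with a KARPAS-422 minus Pfeiffer difference of 2.39 (SE 0.20, adjusted p = 0.00410). For PECAM1 the term was 2.55 (SE 0.45, adjusted p = 0.0423), and for ICAM2 it was 2.08 (SE 0.36, adjusted p = 0.0420). ICAM2 was 1.85 higher in KARPAS-422, where its shNTC signals were 7.10 and 7.37, and differed by -0.23 in Pfeiffer, where its shNTC signal was 12.24. VCL gave -1.37 (SE 0.19, adjusted p = 0.0181), being lower with shEZH2 in KARPAS-422 and reading higher in Pfeiffer. LGALS9 had a term of 3.58 that did not pass (SE 1.20, adjusted p = 0.195). Without KARPAS-422 shEZH2 replicate 1 none of the 4 terms passed, at 2.37 for LGALS1, 2.26 for PECAM1, 1.79 for ICAM2 and -1.27 for VCL, nor without shEZH2 replicate 2, at 2.40, 2.84, 2.37 and -1.47. Across all genes those limma fits called 0, with 1926 and 1779 genes at an unadjusted p under 0.05.

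The lines differed far more in adhesion genes than the arms did. With both arms averaged, 12 of 34 members were higher in KARPAS-422 than in Pfeiffer (26.9% of all tested genes were) and 13 were lower (30.1%), or 73.5% of members in either direction against 57% of genes. ITGA3, ITGA6, ITGAL, ITGB5, CD44 and EPCAM exceeded the median of all values on both Pfeiffer arrays alone. ITGA4, ITGB3, FERMT3 and PECAM1 exceeded it on the 4 KARPAS-422 arrays alone. These genes passed the filter only through the line where they are high. The filter thus has a part in these counts, for members as for all genes, and its size was not tested. The median size of the difference was 1.73 log2 units for members and 0.51 over all genes. All 4 KARPAS-422 arrays lay above both Pfeiffer arrays for 13 members (26.5% of all genes) and below them for another 13 (31.5%). A line is a single culture, so these values describe these lines.

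Integrin chains of the VLA-4 and beta 7 receptors were higher in KARPAS-422. ITGA4 read 11.82 to 12.36 on the 4 KARPAS-422 arrays, against 4.11 and 2.84 on the Pfeiffer arrays, a difference of 8.63 (SE 0.12, adjusted p = 1.10e-08). As the Pfeiffer signal is dim the size is uncertain, and with 64 added to each linear signal it was 5.88. ITGB1 read 13.53 to 13.62 in KARPAS-422, against 10.94 and 10.82 in Pfeiffer (2.69, SE 0.07). ITGB7 read 9.68 to 10.53 in KARPAS-422, against 7.76 and 7.99 in Pfeiffer (2.27, SE 0.13). ITGAE, a partner of ITGB7, read 11.67 to 12.33 in KARPAS-422, against 10.52 and 10.66 in Pfeiffer (1.37, SE 0.08). The chains of these receptors were thus all lower in Pfeiffer, ITGA4 on each of 4 probe sets (7.29 to 8.63).

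For LFA-1 and for ITGAV with ITGB3, partner chains went opposite ways between the lines, while ITGB5 went the same way as ITGAV. ITGAL, the LFA-1 alpha chain, read 3.52 to 6.07 in KARPAS-422, against 9.68 and 9.36 in Pfeiffer, a difference of -4.33 (SE 0.63, adjusted p = 7.61e-04). Its beta chain ITGB2 read 11.67 to 12.12 in KARPAS-422, against 6.08 and 6.63 in Pfeiffer (5.58, SE 0.10, adjusted p = 2.45e-08). In each line, then, only 1 of these 2 chains was well above the median of all values. ITGAV read 7.35 to 8.77 in KARPAS-422, against 9.29 and 8.74 in Pfeiffer (-0.91, SE 0.17), where the ranges overlap slightly. ITGB5 read 3.69 to 5.66 in KARPAS-422, against 7.74 and 6.95 in Pfeiffer (-2.74, SE 0.44, or -1.33 with 64 added). ITGB3 read 9.56 to 10.40 in KARPAS-422, against 4.07 and 3.21 in Pfeiffer (6.40, SE 0.18). All 6 ITGB3 probe sets were higher in KARPAS-422, but the other 5 by only 0.66 to 3.58, and the difference was 3.07 with the mean of probe sets and 3.86 with 64 added. ITGB3 is also a platelet chain, and the platelet genes PF4, PPBP and GP9 were too dim to be tested. Its platelet partner ITGA2B read 4.31 to 5.91 in KARPAS-422, against 7.49 and 8.19 in Pfeiffer. ITGA6 and ITGA3, chains of laminin receptors, were lower in KARPAS-422. ITGA6 read 1.99 to 4.60 in KARPAS-422, against 6.56 and 7.05 in Pfeiffer (-3.22, SE 0.84, or -1.17 with 64 added). ITGA3 read 5.04 to 6.06 in KARPAS-422, against 7.20 and 6.76 in Pfeiffer (-1.46, SE 0.41, or -0.78 with 64 added).

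ICAM1, ICAM2, ICAM3, CD44 and EPCAM were lower in KARPAS-422 than in Pfeiffer. EPCAM, an epithelial adhesion molecule, read 2.86 to 5.64 in KARPAS-422, against 12.98 and 13.33 in Pfeiffer (-8.69, SE 0.44, adjusted p = 3.41e-06), or -6.67 with 64 added. The epithelial keratin KRT18 also read lower in KARPAS-422, at 4.41 to 6.18, against 8.54 and 8.67 in Pfeiffer. KRT8 did not pass (-0.48) and KRT19 was dim on all 6 arrays, and their part in the EPCAM difference was not tested. CD44, the hyaluronan receptor, read 4.69 to 5.94 in KARPAS-422, against 12.89 and 12.25 in Pfeiffer (-7.25, SE 0.23), and all 11 of its probe sets were lower, by 4.51 to 10.03. ICAM1 read 5.67 to 6.40 in KARPAS-422, against 11.53 and 11.66 in Pfeiffer (-5.51, SE 0.18). ICAM2 differed by -3.96 (SE 0.18), and ICAM3, at 12.14 and 11.91 in Pfeiffer, by a smaller -0.43 (SE 0.08). Of the ICAM genes only ICAM2 was called with knockdown, and its KARPAS-422 shEZH2 signals of 9.38 and 8.80 stayed under those of Pfeiffer. LGALS3, ALCAM and ZYX were lower too. LGALS3 read 3.17 to 6.68 in KARPAS-422, against 8.81 and 8.93 in Pfeiffer (-3.32, SE 0.84, or -2.11 with 64 added). ALCAM read 8.47 to 8.55 in KARPAS-422, against 10.09 and 10.68 in Pfeiffer (-1.88, SE 0.12). ZYX read 6.37 to 7.38 in KARPAS-422, against 7.88 and 7.64 in Pfeiffer (-0.99, SE 0.31). ICAM3 and ZYX lost their calls after median centring (adjusted p = 0.0724 and 0.0692).

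Kindlin-3, galectin-1 and PECAM1 were on the KARPAS-422 side. FERMT3 read 11.36 to 11.80 in KARPAS-422, against 4.59 and 6.08 in Pfeiffer (6.16, SE 0.15, adjusted p = 8.55e-08). Both Pfeiffer signals were under the median of all values, and with 64 added to each linear signal the difference was 4.78. LGALS1 read 10.81 to 12.07 in KARPAS-422, against 7.08 and 8.30 in Pfeiffer (3.78, SE 0.10), and the gap was wider between the shEZH2 arrays than between the shNTC arrays, as its interaction term states. PECAM1 differed by 2.76 (SE 0.22, or 1.48 on the shNTC arrays alone) and VCL by 0.80 (SE 0.09). TLN1 read 7.50 to 8.01 in KARPAS-422, against 7.14 and 7.15 in Pfeiffer (0.65, SE 0.18), and its 3 probe sets ranged from 0.03 to 0.94. On the shEZH2 arrays alone the VCL difference was 0.11 (adjusted p = 0.522). CD47, the "don't eat me" signal that binds SIRP alpha, read 13.34 to 13.60 in KARPAS-422, against 12.39 and 12.29 in Pfeiffer (1.10, SE 0.07). When probe sets prone to cross-hybridise were dropped, CD47 was read by a probe set that gave -0.57 (limma adjusted p = 0.0136). The other 6 of its 7 probe sets were higher in KARPAS-422, by 0.16 to 1.24. Without shEZH2 replicate 1, ITGA3 (-1.41, adjusted p = 0.0585), LGALS3 (-3.10, adjusted p = 0.0579) and TLN1 (0.59, adjusted p = 0.0667) were not called.

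**Figure D3:**
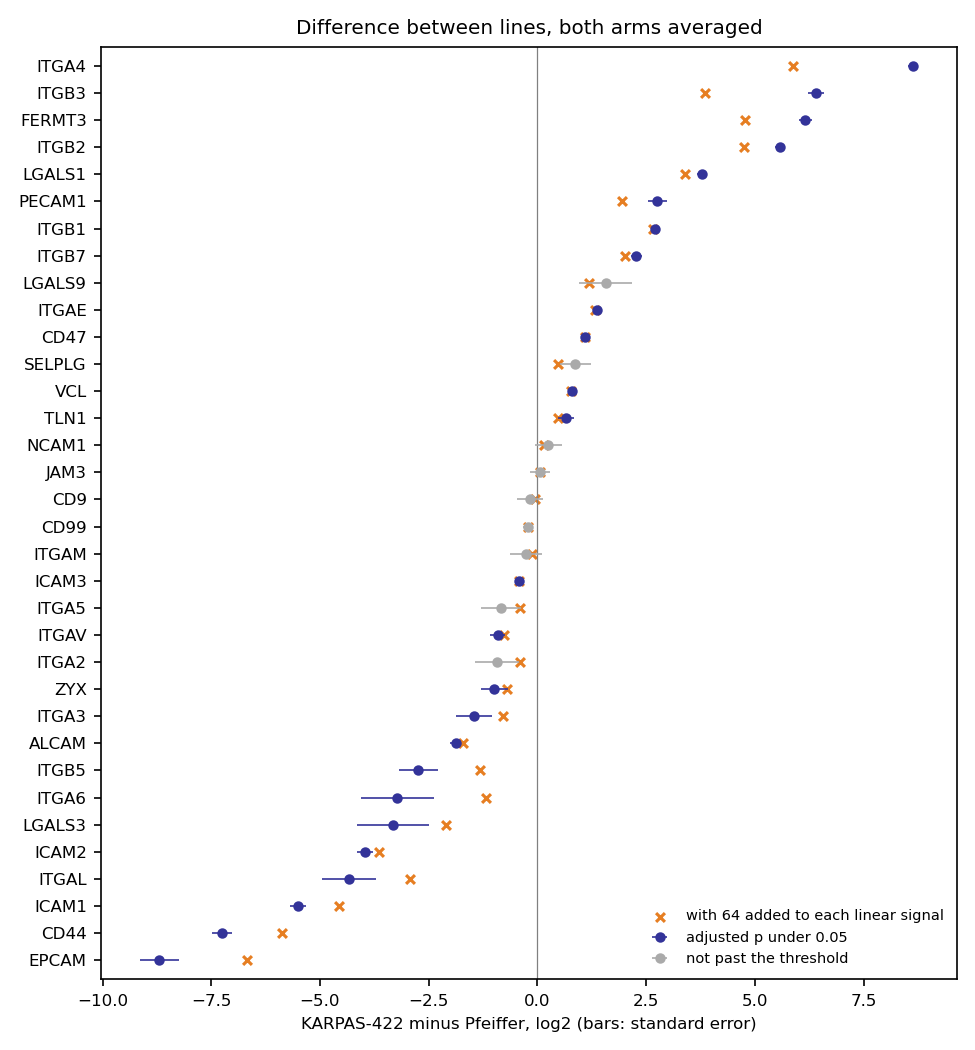
Difference between the lines, KARPAS-422 minus Pfeiffer in log2 units (x axis), for the 34 tested members sorted from highest to lowest, with both arms averaged (4 KARPAS-422 and 2 Pfeiffer arrays). Points are fitted differences with standard errors, dark where the adjusted p was under 0.05, and crosses give the difference with 64 added to each linear signal. ITGA4 and EPCAM stand at the ends, at 8.63 and -8.69, and the crosses lie closer to 0 where 1 line is dim.

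Probe sets of the same gene did not always read alike. Of 18 members with several probe sets past the filter, 9 had both signs in the KARPAS-422 knockdown difference: ALCAM, CD44, CD47, CD9, ICAM1, ITGA4, ITGAL, ITGB3 and TLN1. Of these only CD9 was called. Between the lines, 2 of 18 had both signs (CD47 and JAM3), and in the Pfeiffer knockdown 6 did. CD47 stands out, because its 2 brightest probe sets gave knockdown differences of 0.13 and -0.09 in KARPAS-422, while the other 5 gave 0.65 to 1.09. On one of these CD47 probe sets the signals were 10.60 and 10.35 with shEZH2, against 9.61 and 9.17 with shNTC. Whether the probe sets read different CD47 transcripts was not tested.

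**Figure D4:**
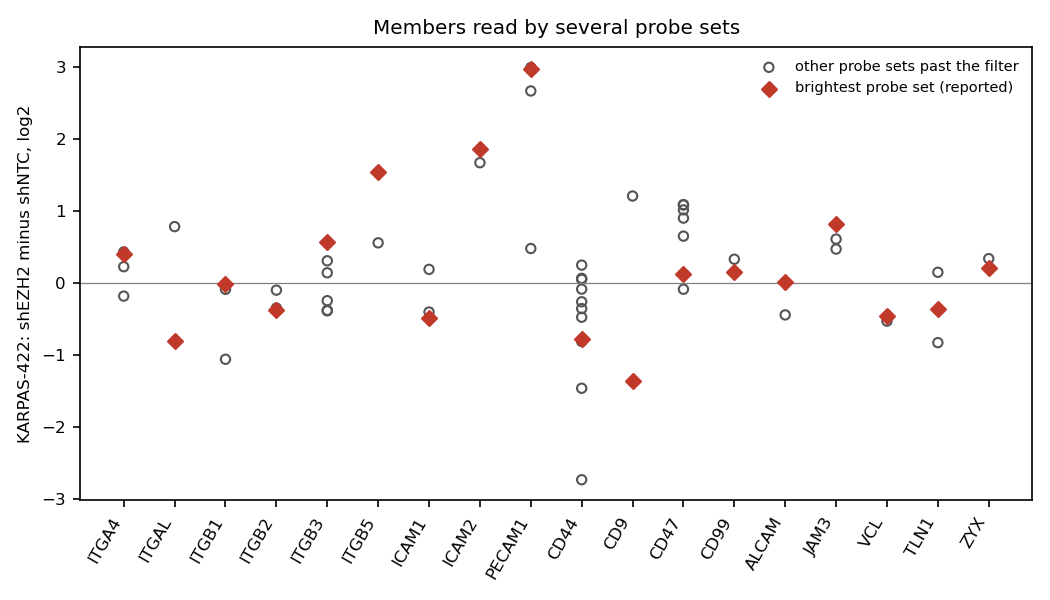
Knockdown difference in KARPAS-422, shEZH2 minus shNTC in log2 units (y axis), of every probe set past the filter for the 18 tested members that have more than 1 (x axis). Red diamonds are the brightest probe set, which gives the reported value, and open circles are the others. ICAM2 and VCL have probe sets on 1 side of 0, while CD9 spans -1.36 to 1.21 and CD44 spans -2.73 to 0.25.

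Genes around the integrins in the same pathways were read from 8 lists of 147 genes, of which 102 were tested. Of these, 23 were higher and 4 were lower with knockdown in KARPAS-422, beside 13.1% and 12.4% of all genes. In the outside-in list of adhesion complex and signalling genes, 8 of 29 rose and 0 fell. PARVG, parvin gamma, read 7.12 and 7.67 with shEZH2, against 5.64 and 4.48 with shNTC (2.34, SE 0.40), and NEDD9, a docking protein of focal adhesion kinases, read 7.68 and 8.18 with shEZH2, against 5.43 and 5.60 with shNTC (2.41, SE 0.21). The probe sets of NEDD9 ranged from -1.40 to 2.41 and those of PARVG from -0.31 to 2.49. The kinase PTK2B rose by 1.18 (SE 0.33) and TNS3, tensin 3, by 0.95 (SE 0.11). The focal adhesion kinase PTK2 rose by 0.37 (SE 0.10), LYN by 0.70 (SE 0.15), GIT2 by 0.53 (SE 0.12) and RAC2 by 0.31 (SE 0.09).

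In the inside-out list of integrin activation, 4 of 17 rose and 2 fell, beside 13.1% and 12.4% of all tested genes. RAPGEF1, an exchange factor that activates RAP1, read 11.11 and 10.55 with shEZH2, against 8.16 and 8.42 with shNTC (2.54, SE 0.19, adjusted p = 3.65e-04), and each of its 3 probe sets was higher. Kindlin-2 (FERMT2, 1.22, SE 0.37), CYTH1 (0.92, SE 0.18) and SKAP2 (0.76, SE 0.11) also rose. RAP1B, the small GTPase itself, fell by 0.43 (SE 0.08), as ITGB1BP1, an inhibitor of integrin activation, did by 0.52 (SE 0.10).

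Among tetraspanins, which organise integrins in the membrane, 3 of 10 rose and 0 fell, beside 13.1% and 12.4% of all tested genes. Those that rose were TSPAN31 (1.40, SE 0.12), CD53 (1.00, SE 0.23) and CD82 (0.72, SE 0.18). CD82 and CD53 also read higher with shEZH2 in Pfeiffer, by 1.67 and 0.99. Of 7 integrin ligands tested, SPP1 (osteopontin), a ligand of ITGAV receptors, was called: it read 8.90 and 9.06 with shEZH2, against 6.48 and 6.39 with shNTC (2.55, SE 0.19, adjusted p = 3.12e-04). In Pfeiffer it read 7.90 with shEZH2 and 8.94 with shNTC. FN1 was too dim to be tested. Of 19 other adhesion pairs, 6 rose and 0 fell. They were the protocadherin PCDH19 (5.48, SE 0.79, from dim shNTC signals of 2.77 and 2.87), LGALS3BP (3.42, SE 0.15), CDH23 (2.05, SE 0.54), CD99L2 (1.74, SE 0.42, its 4 probe sets ranging from -0.41 to 3.24), the SLAM family receptor CD84 (1.54, SE 0.12) and CD48 (0.69, SE 0.21). LGALS3BP, which binds galectin-3, read 12.62 and 12.35 with shEZH2, against 9.10 and 9.02 with shNTC, while LGALS3 itself was not called. Of 10 selectin and glycosylation genes, GCNT1 rose by 1.03 (SE 0.18) and PODXL fell by 1.56 (SE 0.26). HMMR, a hyaluronan receptor gene that is also a mitotic gene, fell by 0.43 (SE 0.08) among 6 CD44 and ERM genes, and 0 of 4 further integrin subunits passed in limma, adjusted or at an unadjusted p under 0.05. In the interaction term 5 of the 102 genes were higher in KARPAS-422 and 0 were lower, beside 1.31% and 0.486% of all genes: RAPGEF1 (2.35), NEDD9 (2.02), SPP1 (3.60), LGALS3BP (3.55) and PCDH19 (8.55). Between the lines, 20 of the 102 were higher in KARPAS-422 and 42 were lower, beside 26.9% and 30.1% of all genes.

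ICAM2 and PECAM1 are neighbours on chromosome 17 in the RefSeq gene order of GRCh38.p14, and some genes around them rose as well. Of the 13 other tested genes between them or within 5 genes on either side, 6 were higher with shEZH2 in KARPAS-422 and 0 were lower, beside 13.1% and 12.4% of all tested genes, with a median difference of 0.57. GH1 was 2.42 higher (SE 0.63), ERN1 1.15 (SE 0.29), DDX5 0.83 (SE 0.17), MILR1 0.75 (SE 0.14), SMURF2 0.70 (SE 0.13) and CD79B, a B cell receptor chain, 0.39 (SE 0.09). ERN1, the IRE1 stress sensor, lies between the members, and its probe sets ranged from -0.26 to 1.15. TEX2 (0.73) and PRR29 (-0.76), which also lie between them, did not pass, nor did SMARCD2, CSHL1, SCN4A, POLG2 and CEP95. GH1 and CSHL1 belong to a cluster of near-identical growth hormone genes, so their readings are uncertain as to gene. Around the other neighbouring members, of the tested genes that are no members, 2 rose and 2 fell of 11 around ITGA1 and ITGA2, 1 rose and 3 fell of 36 around ITGAL, ITGAM and ITGAX, and 0 rose and 1 fell of 13 around ICAM1 and ICAM3. None of these counts was tested as a group.

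Promoter windows of 300 bases were available for 26 members and 27305 genes in the RefSeq table. The 14 members without a window, among them PECAM1, ICAM2 and LGALS1, were not searched. The interferon-stimulated response element core (GAAANNGAAA, both strands) was found in 3 of the 26 members, ITGB5, LGALS9 and VCAM1 (11.5%), and in 4.38% of all genes. An NF-kappaB core (GGGNNTTCC) was found in ITGA1, ITGA5, TLN1, VCAM1 and VCL (19.2%, against 7.95%). The gamma-activated site core (TTCNNNGAA) was found in ICAM1 and ITGAE (7.69%, against 9.38%), and the E-box CACGTG in ITGA6 (3.85%, against 8.77%). Of the genes with the response element core, LGALS9 was called with knockdown, ITGB5 did not pass and VCAM1 was dim. The LGALS9 match is the one capitalised in its sequence above, TTTCTATTTC. CD9 has 4 such windows, which held none of these letters and are not shown, since its probe sets disagree.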

How the data were processed

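Each of the 6 RNA samples was hybridised to an Affymetrix HG-U133 Plus 2.0 array. The deposited table holds log2 signals made with MAS5, per the submitters' processing notes; the log base was settled by the values, since the 2% trimmed mean of 2 to the power of each value was 500 on all 6 arrays. MAS5 scales each array separately. No detection calls or scan dates were used here, and no batch was tested. Of 54675 probe sets, 41091 carried a single symbol, 1801 several, 11721 none and 62 were controls, and 41037 single-symbol probe sets matched a RefSeq gene ID.

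A gene's brightest single-gene probe set was kept if at least 2 of 6 arrays exceeded the median of all deposited values (6.21), called dim otherwise. The test was limma's (version 3.58.1, R 4.3.3; two-sided, with an intensity trend in eBayes), with 4 group means fitted to the 6 arrays and Benjamini-Hochberg adjustment over 12961 genes at 0.05. The spread rests on 2 residual degrees of freedom, all from KARPAS-422, and 5.29 prior ones. Alternatives were other scalings, filters, probe set rules, added constants of 16 and 64, a fit without the trend, arms or lines alone, a replicate block and leaving out each KARPAS-422 array. Scripts were tested on simulated data. Array values, as a range over the 4 KARPAS-422 arrays between lines, are given for members called in a fit, for most of those whose probe sets disagree, and for chosen integrins, and up to 4 called genes per list and direction by size, with further called genes named after their values were seen. The members, lists and rules were chosen with earlier results of these data known. Promoters are RefSeq's (GRCh38.p14).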

Additional observations from a re-analysis of the deposited data

Results flagged for a closer look

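The knockdown difference of 4 members differed between the lines by the interaction term of the fit. It was 2.39 for LGALS1, which read 12.07 and 12.04 with shEZH2 against 10.81 and 10.96 with shNTC in KARPAS-422, and 7.08 with shEZH2 against 8.30 with shNTC in Pfeiffer. It was 2.55 for PECAM1 and 2.08 for ICAM2, which rose in KARPAS-422 and differed by 0.42 and -0.23 in Pfeiffer. Both Pfeiffer signals of PECAM1 were under the median of all values. For VCL it was -1.37, with differences of -0.45 in KARPAS-422 and 0.92 in Pfeiffer. The Pfeiffer arm had 1 array per hairpin in each case.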

How the results depend on the processing

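The knockdown calls of PECAM1, ICAM2 and LGALS1 held under all alternatives run, at differences of 2.28 to 3.26, 1.51 to 2.15 and 1.09 to 1.25. Of 141 alternative values for the knockdown calls of 9 members 116 stayed called in the same direction and 25 lost the call, of 59 for interaction calls 40 and 19, and of 412 for line calls 393 and 18, with 1 reversed (CD47, -0.57 without _x_at and _s_at probe sets). Without the intensity trend, 3 members were higher and 0 lower with knockdown and 0 had an interaction, in place of 5, 4 and 4. Limma's unadjusted p was then under 0.05 for 16 members with knockdown and 10 in the interaction. Over all 12961 tested genes it was so for 4404 and 1829. Leaving out each KARPAS-422 array in turn gave 3 to 7 members higher and 0 to 3 lower with knockdown, 0 to 6 higher and 0 to 1 lower in the interaction, and 11 to 14 higher and 12 to 13 lower between lines. The interaction had 1 higher member after cyclic loess or without a filter, and 0 lower with the mean of probe sets or without _x_at and _s_at probe sets. Between lines, 7 members were lower with at least 4 of 6 arrays above the median and 8 without _x_at and _s_at probe sets, in place of 13. In Pfeiffer, 0 members were higher with 16 or 64 added or with the mean of probe sets, and 0 lower with 64 added. With a replicate block (1 residual degree of freedom), 7 members were higher and 5 lower with knockdown, and the interaction and line counts were 3 and 1, and 13 and 13. Same-numbered arrays did not deviate together (r = 9.58e-04), so the numbers were not taken as pairs.

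Median centring moved the median of all genes between lines to 0.18, against -0.05 as deposited, and 63.2% of the called genes were then higher in KARPAS-422, against 47.2% as deposited; the members split 14 and 11 in place of 12 and 13. Over all genes, 1703 were higher and 1612 lower with knockdown. Those counts were 589 and 141 without the trend, 587 and 577 without shEZH2 replicate 1, 596 and 472 without shEZH2 replicate 2, and 1429 and 1106 without shNTC replicate 1, and 905 were lower without _x_at and _s_at probe sets. The interaction counts of 170 and 63 were 1 and 0 without the trend, 0 and 0 without either shEZH2 replicate, 301 and 87 without shNTC replicate 1, 344 and 128 without shNTC replicate 2, 226 and 163 with the block, 94 and 20 without a filter, 121 and 30 with the mean of probe sets, 241 and 105 with the stricter filter, and 119 and 43 without _x_at and _s_at probe sets. The Pfeiffer counts of 415 and 187 were 1800 and 1241 without a filter, 278 and 110 with 16 added, 107 and 27 with 64 added, and 233 and 93 with the stricter filter. The causes were not tested. Signal limits the size of differences where a gene is dim in an arm or line, as for ITGA4, ITGA6, ITGAL, ITGB3, ITGB5, PECAM1, CD44, EPCAM, LGALS3, LGALS9 and FERMT3.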
